A study of Mus musculus with 16 samples.

Results

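MUNC is a long non-coding RNA expressed in mouse muscle, and its exon residues were probed both in the spliced RNA and in the genomic RNA, which still carries the intron. The comparison rests on 12 of the 16 libraries of the series. It covers the exon residues found in both forms, which are residues 1 to 130 (exon 1) and 131 to 518 (exon 2) of the spliced RNA. In the genomic RNA of 1083 residues the same exons lie at 1 to 130 and 696 to 1083, on either side of an intron of 565 residues. A residue was kept where the deposited sequence was in upper case, which leaves out the primer sites, and where the effective depth was at least 1000 in every library compared. All 468 upper-case exon residues passed this depth minimum, with a lowest depth of 6715 in extracted RNA and 2842 in cells, so none lay just outside it. In 1 of them in extracted RNA and 12 in cells a profile had no deposited reactivity, which left 467 and 456 of the 518 exon residues. Every position below is a residue of the spliced RNA counted from its 5′ end, unless the genomic RNA is named.

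SHAPE reagents acylate flexible nucleotides, so residues held in base pairs tend to react little and residues in loops tend to react more. In mutational profiling, reverse transcriptase reads through the adducts and leaves mutations, and the rate in reagent-treated RNA is set against the rate with solvent alone. An unspliced RNA can fold differently from its spliced product because the intron separates exon sequences that splicing brings together and can itself pair with exon sequence. MUNC, which is transcribed next to the myogenic regulator gene Myod1, is known as an enhancer RNA that acts in muscle differentiation. In RefSeq (GRCm38.p6) Munc is a synonym of Gm45923, a long non-coding RNA gene between Otog and Myod1.

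All libraries came from C2C12 cells, an established mouse myoblast line, which the labels call PAX7 NEG. The cells were kept in high-glucose medium with serum and overexpressed either the spliced or the genomic form of MUNC, from a construct whose promoter is not given in the sources used here. RNA was treated with 25 mM 5NIA, a SHAPE reagent, or with DMSO, the solvent. Treatment was applied either to living cells or to extracted, cell-free RNA. Each environment holds 2 spliced profiles and 1 genomic profile, and each profile joins 1 5NIA library to 1 DMSO library. Nothing in the labels says that the spliced replicates came from separate cultures, so p-values measure only the spread between these libraries. The libraries are amplicons of MUNC, so marker genes of the cell line could not be read from them.

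The exons had identical sequence in both forms, and the forms part only at the junction. The 3 windows below show this, with exon 1 in lower case and the bases that follow it in capitals in the first 2, and the intron end in capitals in the third. The intron begins with GU and ends with AG.
spliced junction, residues 111 to 150: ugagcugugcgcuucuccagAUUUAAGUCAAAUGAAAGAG
genomic 5′ splice site, genomic residues 111 to 150: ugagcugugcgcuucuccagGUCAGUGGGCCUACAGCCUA
genomic 3′ splice site, genomic residues 676 to 715: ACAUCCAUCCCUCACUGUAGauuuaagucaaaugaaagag

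The genomic RNA was covered by 2 amplicons that overlap. Amplicon 1 holds exon 1, the intron and exon 2 up to residue 195, while amplicon 2 starts inside the intron and holds exon 2 up to residue 493. Exon 1 of the genomic RNA was therefore read by amplicon 1 alone, whereas the spliced RNA was read as 1 amplicon, so for exon 1 the form of the RNA and the amplicon cannot be told apart. Median effective depth ran from 12279 in the 5NIA library of spliced in-cell replicate 2 to 241310 in the DMSO library of spliced in-cell replicate 1.

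Results that rest on 2 of the profiles need their measured differences stated first. In cell-free amplicon 1, 34 of 105 exon 1 residues and 195 of 561 intron residues mutated less often with 5NIA than with DMSO. The same was true of 3 of 92 intron residues in cell-free amplicon 2 and of 11 of 562 intron residues in amplicon 1 from cells. Spliced in-cell replicate 2 had 69 of 456 residues that mutated less with 5NIA, against 13 of 468 in replicate 1, and its normalised reactivity reached 69.4, against 2.99 in replicate 1.

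Normalised reactivity, the authors' score, is the 5NIA mutation rate minus the DMSO rate, multiplied by 1 factor for the whole profile. In extracted RNA the genomic and spliced exons shared most of their profile but differed at defined residues. Pearson's r across 467 residues was 0.796 between genomic and spliced replicate 1 and 0.791 between genomic and replicate 2, against 0.942 between the spliced replicates. These residues share libraries and are not independent, so r is a description. A residue was taken to differ where the reactivities were at least 0.5 apart, and by more than the summed standard errors of the authors scaled to a 95% normal interval, in the same direction against both spliced replicates. By that rule 33 of 467 residues (7.07%) differed, of which 20 (4.28%) were higher and 13 (2.78%) lower in genomic RNA. Against spliced replicate 1 alone 44 residues (9.42%) passed and against replicate 2 alone 48 (10.3%), while the spliced replicates differed from each other by the same thresholds at 11 residues (2.36%).

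**Figure D1:**
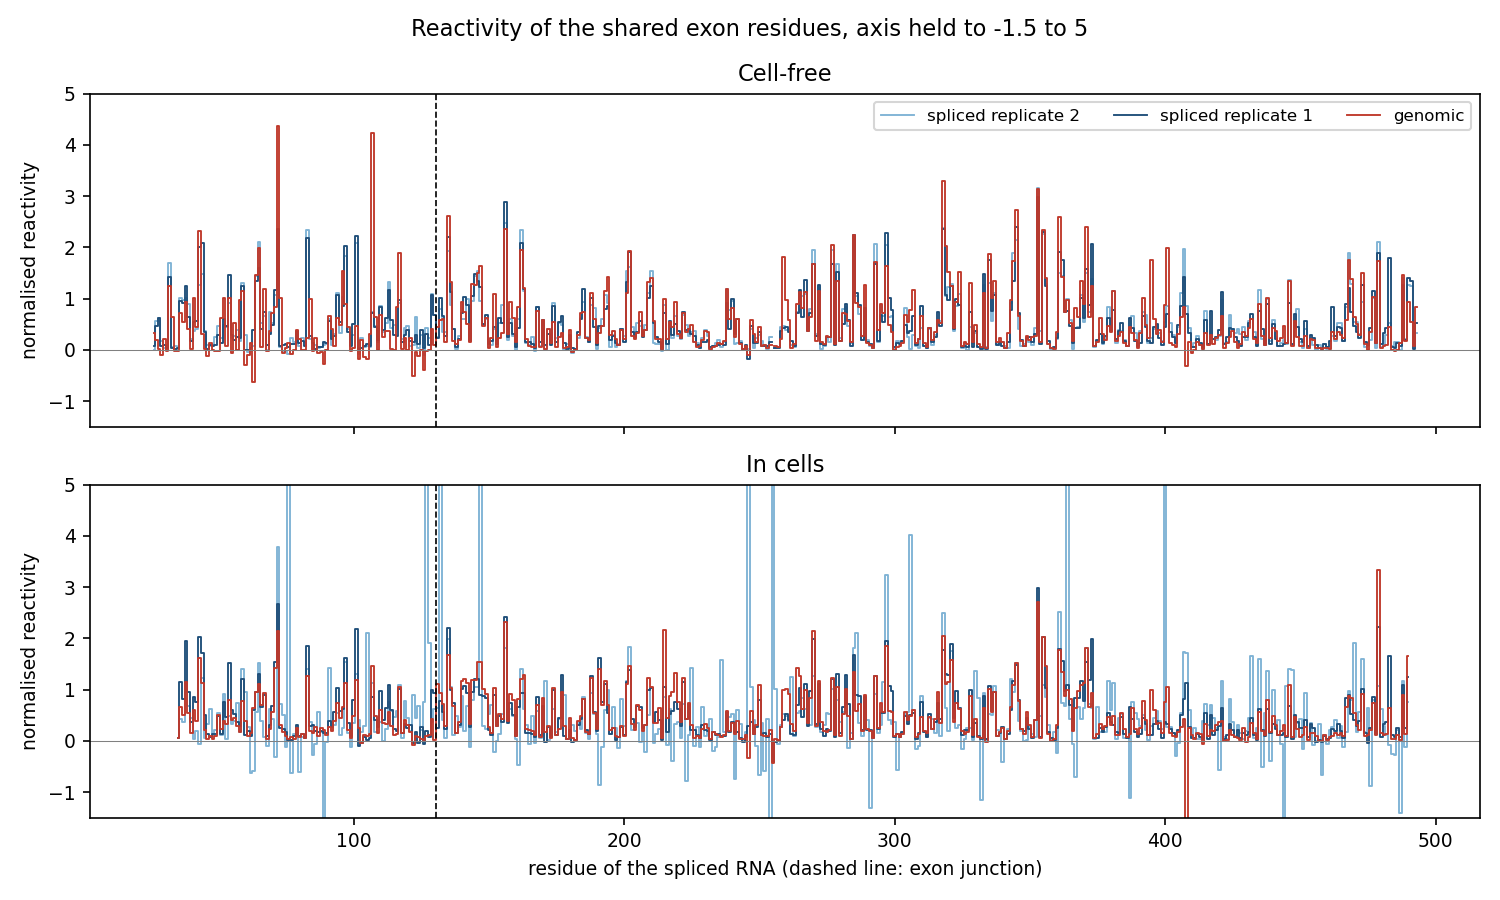
Normalised reactivity (y axis, no unit) of each shared exon residue (x axis) in genomic RNA and in both spliced replicates, for extracted RNA (top) and RNA in cells (bottom). The 3 cell-free profiles largely follow each other, with genomic peaks above 4 at A72 and A107 of exon 1, and 11 values of spliced in-cell replicate 2 and 1 of the genomic in-cell profile lie outside the axis of -1.5 to 5.

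The differences were unevenly spread along the RNA. In exon 1, 18 of 105 residues (17.1%) passed the rule, 8 higher and 10 lower in genomic RNA, and r with spliced replicate 1 was 0.589. Of these 105 residues 67 (63.8%) were lower than both spliced replicates, compared with 40.9% of all 467, and 34.9% of the 467 were higher than both. In exon 2, 15 of 362 residues passed, 12 higher and 3 lower, and r with replicate 1 was 0.884. When each exon 2 residue was read from amplicon 2 alone, with that amplicon's own normalisation, 9 of 362 passed, 4 higher and 5 lower.

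Residues 131 to 195 were read by both amplicons so the amplicons can be set against each other there. In extracted RNA amplicon 1 differed from amplicon 2, on the same genomic RNA, at 13 of 65 residues (r = 0.698). The gaps went both ways. A194 read 4.33 in amplicon 1 and 0.967 in amplicon 2, with 0.848 and 0.903 in the spliced replicates. A168 read 0.0495 in amplicon 1 and 0.815 in amplicon 2, with 0.838 and 0.841 in the spliced replicates. Amplicon 1 differed from both spliced replicates at 10 of the 65 residues and amplicon 2 at 1. In cells the amplicons differed at 5 of 65 residues (r = 0.90). The part of the amplicon in the exon 1 differences was not tested beyond these values.

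Adenosines, the most reactive base in these profiles, held 19 of the 33 residues that passed. They made up 134 of the 467 residues, so 14.2% of adenosines passed, compared with 6.4% of guanosines, 3.6% of cytidines and 2.06% of uridines. The mean genomic reactivity was 1.01 for adenosines and 0.198 for cytidines, so a fixed step of 0.5 is a larger relative change for a cytidine.

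The largest single rise was A107 of exon 1, an adenosine left unpaired by both the spliced and the genomic pairing model. Its reactivity was 4.24 ± 0.038 (the authors' standard error, as for every ± in reactivities) in genomic RNA, 0.719 ± 0.014 in spliced replicate 1 and 0.737 ± 0.029 in replicate 2. The genomic value stood apart from 2 spliced values that lay close together. Like all exon 1 residues of the genomic RNA, A107 was read by amplicon 1 alone, so no second amplicon can be set beside that value. Its mutation rate with 5NIA was 11.2% (95% Wilson interval 11.1 to 11.4%) in genomic RNA, 2.05% (1.98 to 2.12%) and 2.78% (2.60 to 2.98%) in the spliced replicates. These intervals cover counting error only, because reads made by PCR are not independent molecules.

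A72, also unpaired in both models, was the next rise in extracted RNA. Its reactivity was 4.36 ± 0.043 in genomic RNA, 2.36 ± 0.028 in spliced replicate 1 and 2.26 ± 0.055 in replicate 2. It was the most reactive residue of the cell-free genomic exons.

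The largest falls were exon 1 adenosines as well, and they were among the most reactive residues of the spliced RNA. A83 read 0.238 ± 0.010 in genomic RNA, 2.19 ± 0.025 in spliced replicate 1 and 2.33 ± 0.053 in replicate 2. A101 read 0.469 ± 0.013 in genomic RNA, 2.21 ± 0.024 in replicate 1 and 2.08 ± 0.047 in replicate 2. A44 read 0.301 ± 0.016 in genomic RNA, 2.09 ± 0.037 in replicate 1 and 1.48 ± 0.061 in replicate 2. In all 3 the genomic value was the low one and both spliced values were high, and both models leave all 3 residues unpaired. A97, the fifth fall of the ranking, was 0.889 ± 0.019 in genomic RNA against 2.03 ± 0.024 and 1.83 ± 0.046.

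**Figure D2:**
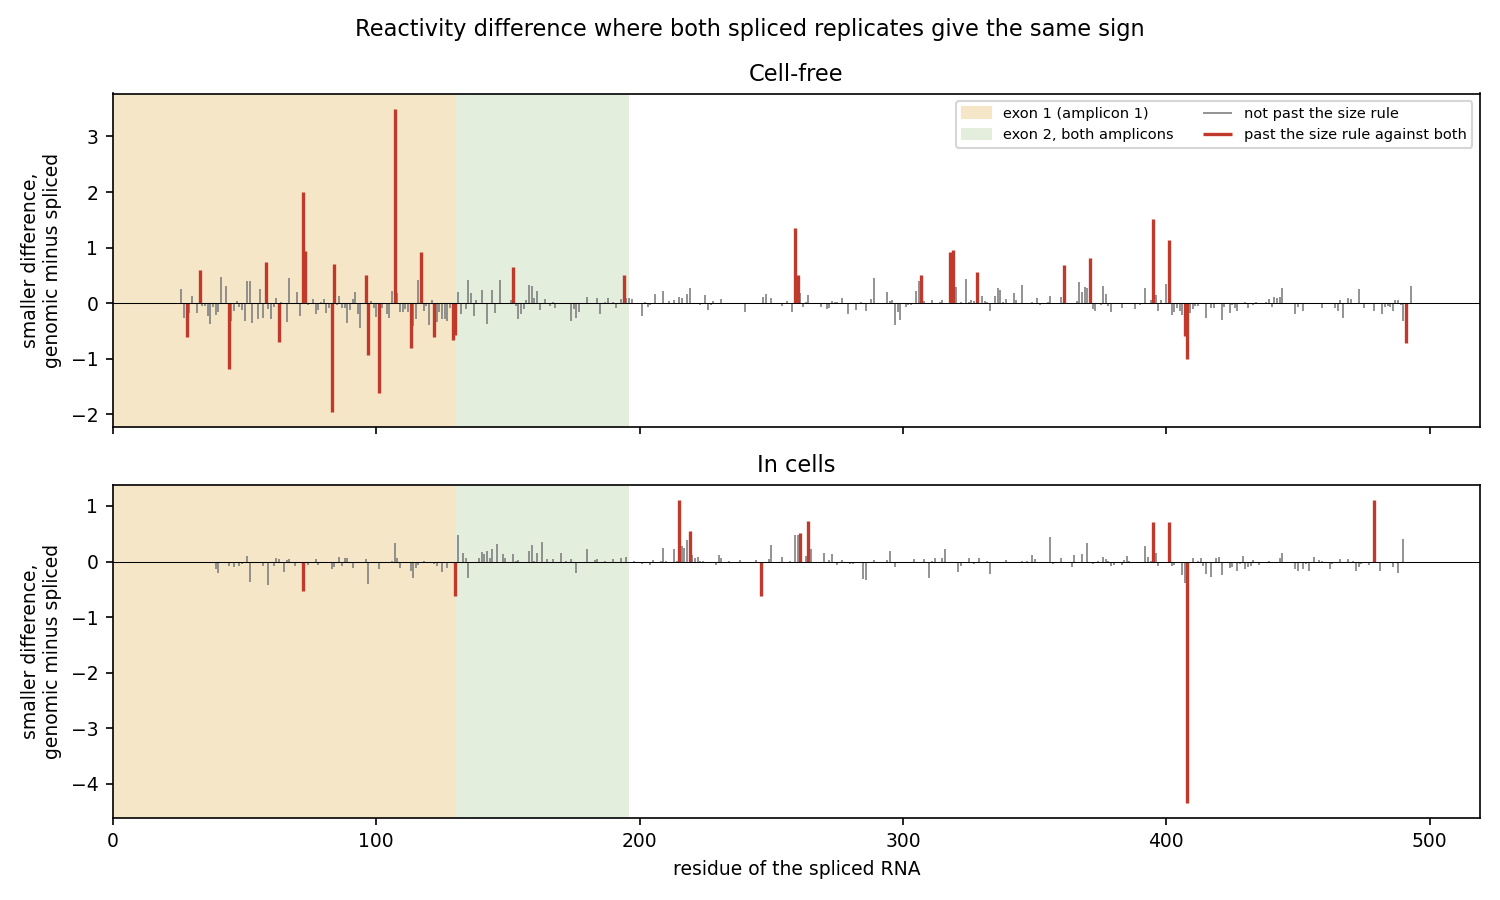
Genomic minus spliced reactivity (y axis, the smaller of the differences against both replicates, drawn only where both have the same sign) by residue (x axis), cell-free on top and in cells below. Red lines pass the size rule against both replicates, and 18 of the 33 red lines in extracted RNA lie in exon 1 compared with 2 of 11 in cells.

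The end of exon 1 was low in genomic RNA. Over residues 121 to 130 the mean cell-free reactivity was -0.0371 in genomic RNA, 0.328 in spliced replicate 1 and 0.345 in replicate 2, and 9 of the 10 residues were lower than both replicates. Of these 10 residues 6 mutated less with 5NIA than with DMSO in genomic RNA. C122 is an example, with a genomic rate of 0.0867% with 5NIA and 1.41% with DMSO, while spliced replicate 1 had 1.38% and 0.986%. In genomic RNA from cells C122 had 1.62% with 5NIA and 1.68% with DMSO. Across the junction, at residues 131 to 140 of exon 2, no residue of the 10 passed the rule, and the means were 0.712 in genomic RNA, 0.686 in replicate 1 and 0.585 in replicate 2. These genomic values merge both amplicons, whereas residues 121 to 130 come from amplicon 1 alone. The junction and the change of amplicon therefore cannot be told apart here. The amplicons differed both ways past the junction, with A131 at -0.0663 in amplicon 1 and 0.687 in amplicon 2, and A140 at 1.12 and 0.757.

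G130, the last residue of exon 1, differed in both environments. In extracted RNA it read 0.0917 ± 0.011 in genomic RNA, 0.672 ± 0.013 in spliced replicate 1 and 0.685 ± 0.027 in replicate 2. In cells it read 0.0122 ± 0.035 in genomic RNA, 0.927 ± 0.038 in replicate 1 and 0.633 ± 0.177 in replicate 2. The genomic value was the lowest of the 3 each time. G130 pairs with an exon 2 residue in the spliced model and with the intron in the genomic model. The spliced in-cell value of replicate 2 rests on 17 mutations with 5NIA.

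A count model was run beside the size rule. edgeR's quasi-likelihood test asked at each residue whether the ratio of 5NIA to DMSO mutation rates differed between the forms, with the single genomic pair assumed to vary like the spliced pairs. In extracted RNA it called 0 of 467 residues (0%) at a Benjamini-Hochberg adjusted p of 0.05, and at an unadjusted p of 0.05 it held 2 higher and 26 lower residues. Its smallest adjusted p was 0.0657, at C122, where the log2 ratio was -4.76 ± 1.25 (standard error). For A107 the log2 ratio was 2.22 ± 1.37 and for A72 it was 2.83 ± 1.33, with edgeR adjusted p-values of 1.00 and 0.660. With libraries scaled to an equal median log mutation rate, a setting added after seeing the data, edgeR called 16 (3.43%), 2 (0.428%) higher and 14 (3%) lower in genomic RNA. DESeq2 on the same counts called 10 residues (2.14%), all lower in genomic RNA.

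limma on the reactivities themselves called 71 residues (15.2%), 30 (6.42%) higher and 41 (8.78%) lower, and these included 31 of the 33 that passed the size rule. Of its calls 47 were among the 105 exon 1 residues and 24 among the 362 of exon 2. In simulated cell-free counts edgeR recovered 1 of 34 residues changed 4-fold and 14 of 32 changed 16-fold.

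The deposited pairing probabilities, which belong to the cell-free data, give the exon pairs modelled for each form. They are model values, with 1 genomic model from 1 pair of libraries. At a probability of at least 0.5 the model from both spliced replicates joined held 118 pairs, and 69 of them (58.5%) were also in the genomic model. The kept share is given by where the pairs lie. Within exon 1 22 of 25 pairs were kept, within exon 2 47 of 81, and between exon 1 and exon 2 0 of 12. The intron puts 565 more residues between the exons, and any limit on pairing distance in the folding program is not known. It is therefore not known whether the genomic model could hold such a pair. Taken from the separate replicate models, 67 of 138 pairs (48.6%) of replicate 1 and 69 of 128 (53.9%) of replicate 2 were kept, whereas replicate 2 held 109 of the 138 pairs of replicate 1 (79.0%). The models of the spliced replicates differ although their sequence is the same, so cell-free data of each replicate entered them. The models are therefore not independent of the cell-free profiles, and cell-free reactivities set beside them below do not test them. No pairing model for RNA in cells was used here.

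Of the 49 pairs that were not kept, 12 had a residue that paired with the intron instead, 20 had a residue that paired with another exon residue, and 17 had both residues unpaired. The genomic model held 225 pairs, of which 111 joined exon residues, 58 lay within the intron and 56 joined exon to intron. Among the exon to intron pairs 7 were in exon 1 and 49 in exon 2. Of the 111 exon pairs 42 were in none of the 3 spliced models, and all 42 lay within exon 2.

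**Figure D3:**
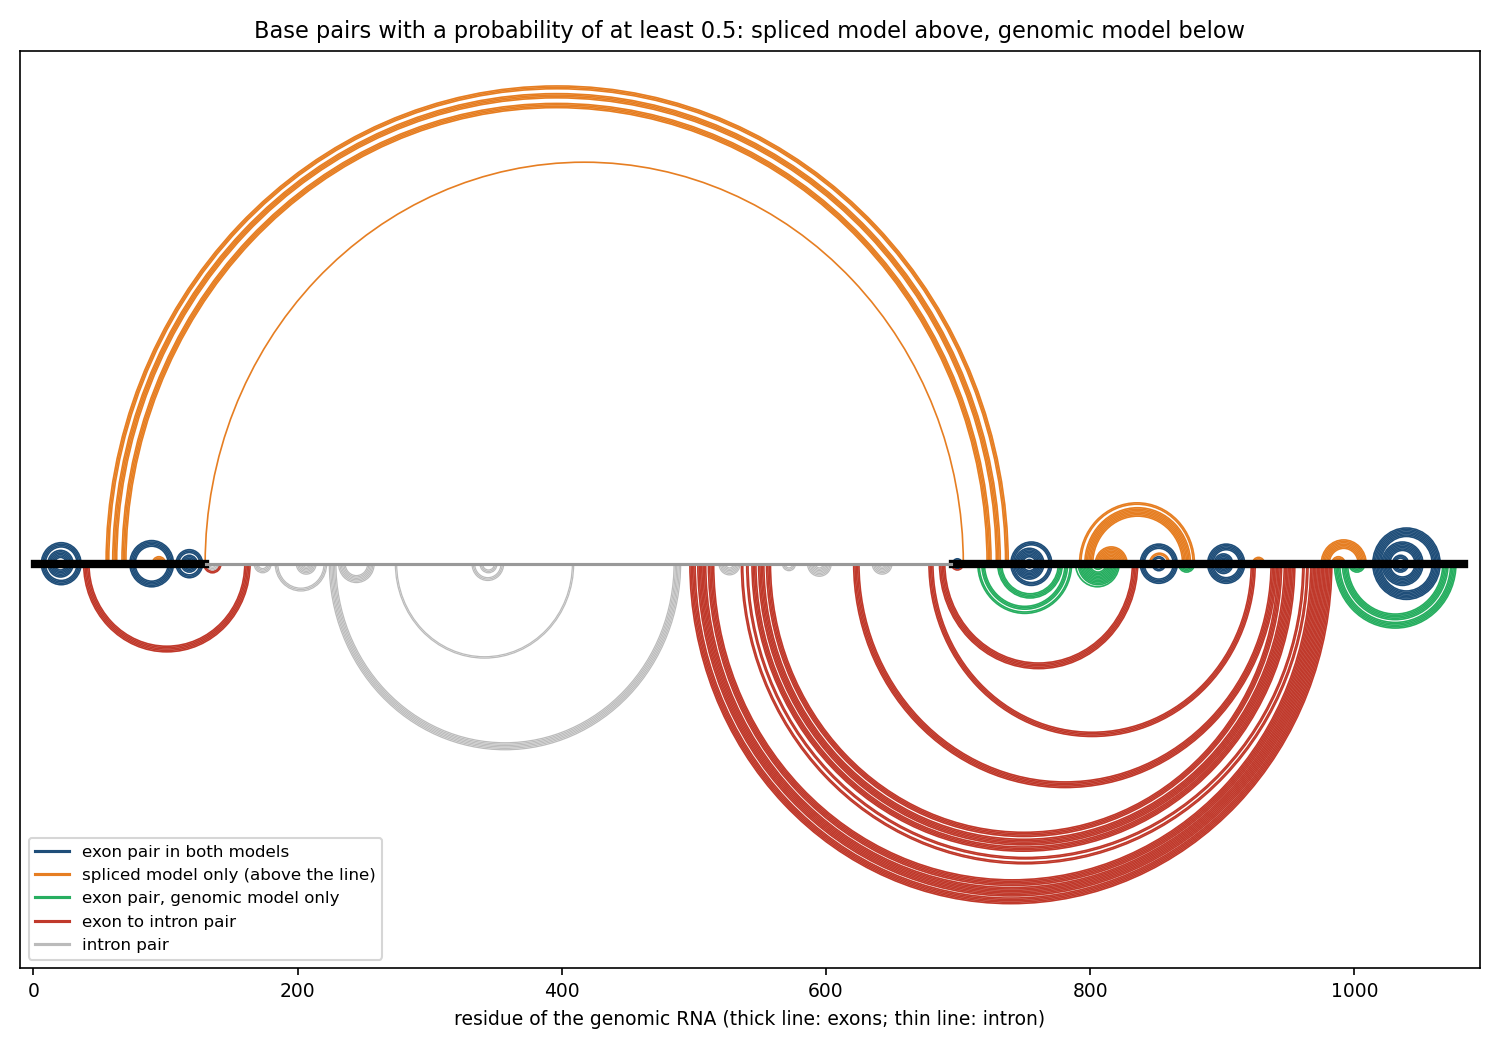
Base pairs with a probability of at least 0.5, drawn as arcs along the genomic RNA (x axis, residue number), with the joined spliced model above the line and the genomic model below. The 69 pairs in both models are local hairpins, the exon 1 to exon 2 arcs appear above only, and 39 residues of a stretch of exon 2 are joined to the intron below.

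The pairs that the spliced model held between exon 1 and exon 2 sit in short helices that span the junction. Their strands are shown because no pair between the exons was kept, and only residues paired with the other exon are in capitals.
exon 1 strand, residues 52 to 73: acaGGAcaGGGGaaaAUCAaag
exon 2 strand, residues 154 to 176: uuaUGAUgaaCCCCacaUCCauc

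The helix of residues 60 to 63 with 164 to 167 had a mean probability of 0.992 in the joined spliced model. None of its pairs was listed for the genomic RNA, where a missing pair was counted as 0. The helix of 67 to 70 with 157 to 160 had 0.931 in the spliced model and was likewise not listed for the genomic RNA. Its exon 2 strand, residues 157 to 160, had a mean cell-free reactivity of 0.50 in genomic RNA, 0.285 in spliced replicate 1 and 0.265 in replicate 2, with all 4 residues higher than both replicates (34.9% of all 467 were), and in cells the means were 0.553, 0.421 and 0.395, with 3 of 4 higher than both (29.8% of all 456). None of the 4 passed the size rule in either environment. The cell-free amplicons differed here. A159 read 0.156 and U160 -0.0191 in amplicon 1, both below both spliced replicates, and 0.692 and 0.181 in amplicon 2. U157 and G158 were above both replicates in each amplicon. The other exon 2 strand, residues 164 to 167, had cell-free means of 0.102, 0.109 and 0.115, and residues 165 to 168 pair with 211 to 214 in the genomic model (0.626). The exon 1 strands differed from each other. Residues 60 to 63 had a cell-free mean of -0.227 in genomic RNA, 0.0997 in replicate 1 and 0.0741 in replicate 2, with 3 of 4 lower than both, and G63 passed the rule. In cells their means were 0.324, 0.247 and 0.0033, with 1 of 4 lower than both. Residues 67 to 70 had cell-free means of 0.558, 0.402 and 0.475, with 2 of 4 higher than both.

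In the genomic model the longest helix of the spliced exons was replaced by another exon helix of the same length. In the spliced model residues 239 to 248 paired with 254 to 263, and in the genomic model 226 to 235 paired with 247 to 256. The stretch is shown once for each helix, with only the residues of that helix in capitals, because residues 247, 248 and 254 to 256 belong to both helices.
residues 226 to 263, spliced helix: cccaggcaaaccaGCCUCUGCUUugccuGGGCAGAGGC
residues 226 to 263, genomic helix: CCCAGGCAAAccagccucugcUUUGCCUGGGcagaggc

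Each helix had 10 pairs. The mean probability of the first was 0.997 in the spliced and 0.00556 in the genomic model, and that of the second was 0.987 in the genomic and 0.00205 in the spliced model. The neighbouring spliced helix of 231 to 237 with 305 to 311, which shares residues with the genomic helix, went from 0.951 to 0.00546. The model of spliced replicate 1 alone gave the genomic helix a mean probability of 0.131, and that of replicate 2 gave it 1.65e-05.

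The profiles parted within residues 258 to 263, which the spliced model pairs and the genomic model leaves unpaired. The models are not independent of the cell-free profiles, so that match in extracted RNA may have been set in advance. G259 had a cell-free reactivity of 1.81 ± 0.017 in genomic RNA, 0.428 ± 0.009 in spliced replicate 1 and 0.460 ± 0.021 in replicate 2. A260 had 0.968 ± 0.013 in genomic RNA, 0.453 ± 0.010 in replicate 1 and 0.392 ± 0.020 in replicate 2. Both residues were high in genomic RNA and low in both spliced replicates, and both passed the size rule. With the factor of amplicon 2 alone, 33.0 in place of 38.2, the gap of A260 to replicate 1 would fall below 0.5. The gaps of G259 would stay above 0.5. The mean over the 6 residues was 0.618 in genomic RNA, 0.308 in replicate 1 and 0.310 in replicate 2, although 2 of the 6, A258 among them, were lower than both replicates.

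In cells 4 of the 6 residues were higher in genomic RNA than in both replicates, while A258 was lower than both and G262 lay between them. G259 had 1.00 ± 0.028 in genomic RNA, 0.404 ± 0.025 in replicate 1 and 0.528 ± 0.138 in replicate 2. G261 had 0.924 ± 0.029 in genomic RNA, 0.406 ± 0.027 in replicate 1 and 0.381 ± 0.118 in replicate 2, and it was the 1 residue of the 6 that passed the rule in cells. With the factor of amplicon 2 alone, 141 in place of 150, its gap to replicate 1 would fall below 0.5. The in-cell mean over the 6 residues was 0.621 in genomic RNA, 0.309 in replicate 1 and 0.506 in replicate 2. A264, just past the helix and unpaired in both models, rose in cells as well, with 1.42 ± 0.034 against 0.696 ± 0.033 and 0.552 ± 0.223. The 5′ strand of the genomic helix, residues 226 to 235, was low in all 3 cell-free profiles. Its means were 0.148 in genomic RNA, 0.120 in replicate 1 and 0.182 in replicate 2. The joined spliced model also pairs most of this strand, with residues 231 to 235 in its helix of 231 to 237 with 305 to 311.

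**Figure D4:**
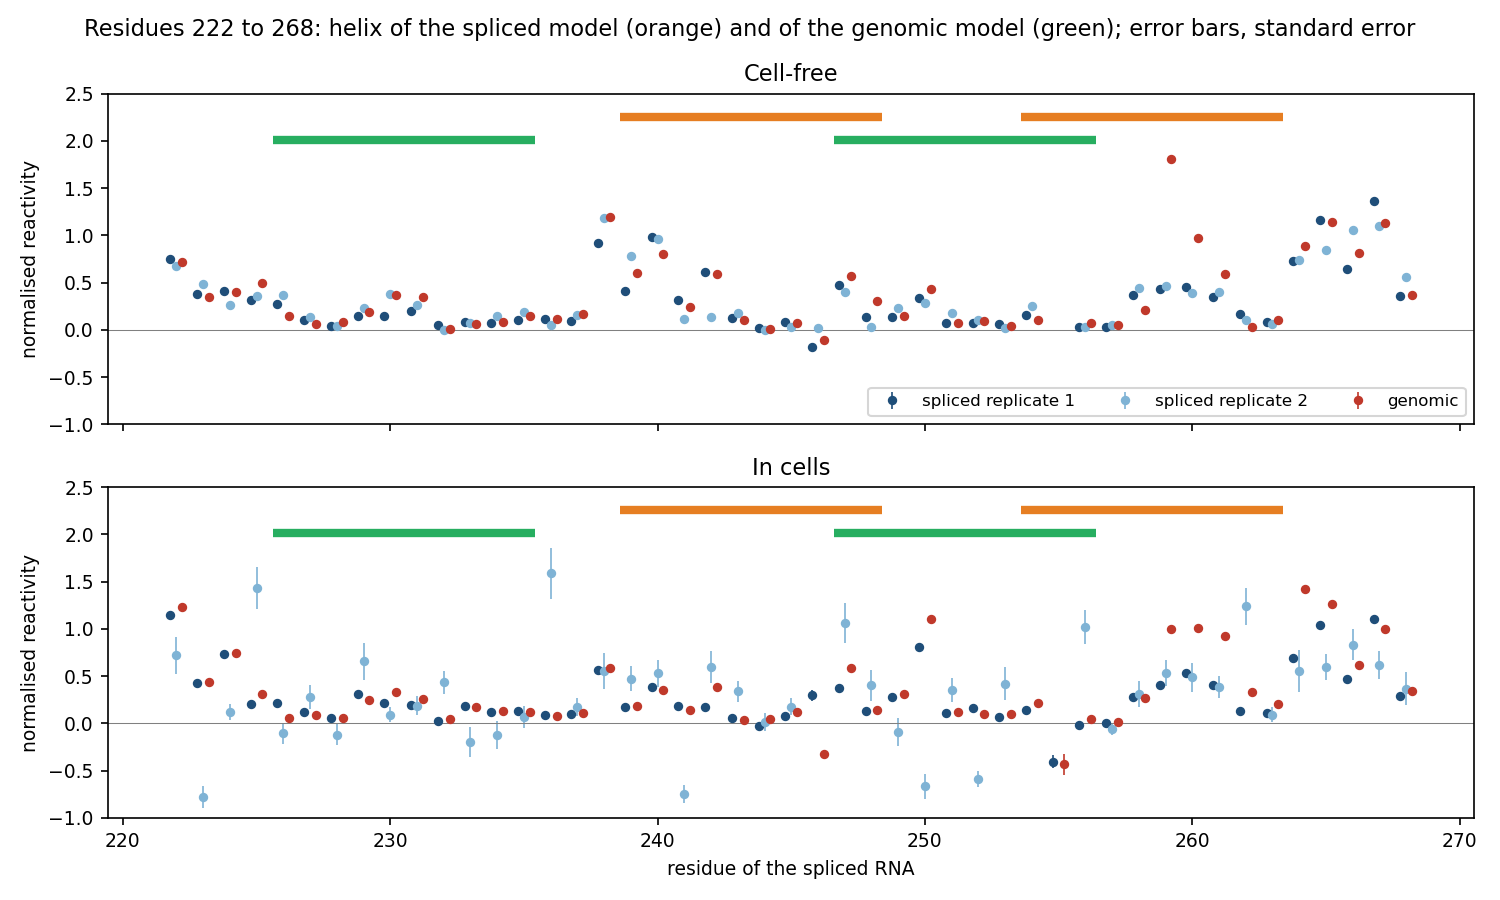
Reactivity (y axis) of residues 222 to 268 (x axis) in the 3 profiles of each environment, with standard errors as bars where they exceed the point. Orange bars mark the helix of the spliced model and green bars that of the genomic model, red genomic points at residues 259 to 261 lie above both spliced points in both panels, and 3 values of spliced in-cell replicate 2 lie outside the axis.

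In the genomic model the intron took its exon partners mainly from 1 stretch of exon 2. Of the 47 residues from 372 to 418, 39 paired with intron residues, which lie between 497 and 625 of the genomic RNA. Both strands are shown with the paired residues in capitals, because they form the exon to intron duplex seen in the genomic model.
exon 2 strand, residues 372 to 418: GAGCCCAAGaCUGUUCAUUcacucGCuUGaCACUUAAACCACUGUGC
intron strand, genomic residues 497 to 625: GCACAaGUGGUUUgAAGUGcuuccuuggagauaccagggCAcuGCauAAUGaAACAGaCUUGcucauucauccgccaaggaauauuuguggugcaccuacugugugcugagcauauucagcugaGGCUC

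Its longest helix joined residues 407 to 413 to intron residues 503 to 509, in 7 pairs with a mean probability of 0.996. The next helices were 402 to 406 with intron residues 511 to 515 (0.975), 414 to 418 with 497 to 501 (0.95) and 382 to 386 with 549 to 553 (0.926). The longest exon 1 helix with the intron joined residues 38 to 42 to intron residues 160 to 164 (0.963). Of the 56 exon residues with an intron partner, 43 were unpaired in the joined spliced model and 13 had an exon partner there.

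One spliced hairpin lost its partner strand to the intron. It is shown with the paired residues in capitals, and its first 9 residues, 410 to 418, face the intron in the genomic model.
residues 410 to 444, spliced hairpin: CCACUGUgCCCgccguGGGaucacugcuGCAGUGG

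The helix of 410 to 416 with 438 to 444 had a mean probability of 0.717 in the joined spliced model and 2.52e-09 in the genomic model. Its released strand, residues 438 to 444, had a cell-free mean of 0.414 in genomic RNA, 0.285 in spliced replicate 1 and 0.341 in replicate 2, with 6 of 7 residues higher than both replicates, compared with 34.9% of all 467. In cells the means were 0.342, 0.247 and 0.151, with 3 of 7 higher than both, compared with 29.8% of all 456. Part of that strand, 439 to 443, pairs with 431 to 435 in the genomic model (0.978). The genomic model also gains exon helices of 420 to 424 with 508 to 512 (0.998) and of 426 to 430 with 502 to 506 (0.940). Residues 502 to 512 lie in a primer site and had no reactivity.

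Reactivity over the intron-facing residues was lower in extracted genomic RNA. From residue 402 to 418 the cell-free mean was 0.170 in genomic RNA, 0.390 in spliced replicate 1 and 0.456 in replicate 2. All but 1 of these 17 residues, 16, were lower than both replicates, compared with 40.9% of all 467 residues. Over the 5′ side of the stretch, residues 372 to 390, 11 of 19 were lower than both, with means of 0.377, 0.436 and 0.440. Across all exon residues that were unpaired in the spliced model and paired with the intron in the genomic model, 28 of 43 were lower than both replicates, and of those that changed from an exon partner to an intron partner 10 of 13 were. The intron partners come from a model that is not independent of the cell-free profiles, so these cell-free counts may have been set in advance in part.

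In cells the intron-facing residues were counted in the same way. From residue 402 to 418 10 of 17 residues were lower than both replicates, compared with 26.1% of all 456 (29.8% were higher than both), and 12 of 17 were lower than replicate 1. Over residues 372 to 390 4 of 19 were lower than both, and among the 43 residues that gained an intron partner 15 were. The difference between the environments was not tested.

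Among the residues left unpaired inside the duplex, C395 and A401 were named for their large rises in genomic RNA. In cells the genomic reactivity minus the spliced mean was 0.789 at C395 and 0.739 at A401. At the other unpaired residues of the stretch the difference was smaller. It was -0.250 at A381, 0.0402 at C391, 0.308 at A392, 0.136 at C393, 0.0524 at U394 and 0.0253 at U398. C395 had a cell-free reactivity of 1.75 ± 0.021 in genomic RNA, 0.125 ± 0.006 in spliced replicate 1 and 0.230 ± 0.016 in replicate 2. In cells C395 had 0.986 ± 0.035 in genomic RNA, 0.111 ± 0.017 in replicate 1 and 0.283 ± 0.111 in replicate 2. The genomic value was several times both spliced values in each environment, and C395 was unpaired in both models.

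A401, a single unpaired residue between intron-paired segments, was higher in genomic RNA too. In extracted RNA it read 1.99 ± 0.023 in genomic RNA, 0.688 ± 0.013 in spliced replicate 1 and 0.859 ± 0.030 in replicate 2. In cells it read 1.05 ± 0.038 in genomic RNA, 0.340 ± 0.027 in replicate 1 and 0.278 ± 0.152 in replicate 2. The spliced in-cell values of replicate 2 rest on 10 mutations with 5NIA at C395 and 19 at A401.

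A408, inside the longest exon to intron helix, was low in genomic RNA, and its DMSO rate differed between the forms as well. Its reactivity was -0.308 ± 0.018 in cell-free genomic RNA, 0.690 ± 0.014 in spliced replicate 1 and 0.849 ± 0.028 in replicate 2. In cells it was -3.21 ± 0.115 in genomic RNA, 1.13 ± 0.059 in replicate 1 and 1.72 ± 0.290 in replicate 2. The genomic values fell below 0 because the DMSO rate exceeded the 5NIA rate. The DMSO rate was 1.98% in cell-free genomic RNA and 3.73% in genomic RNA from cells, and between 0.188% and 0.628% in the 4 spliced DMSO libraries.

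**Figure D5:**
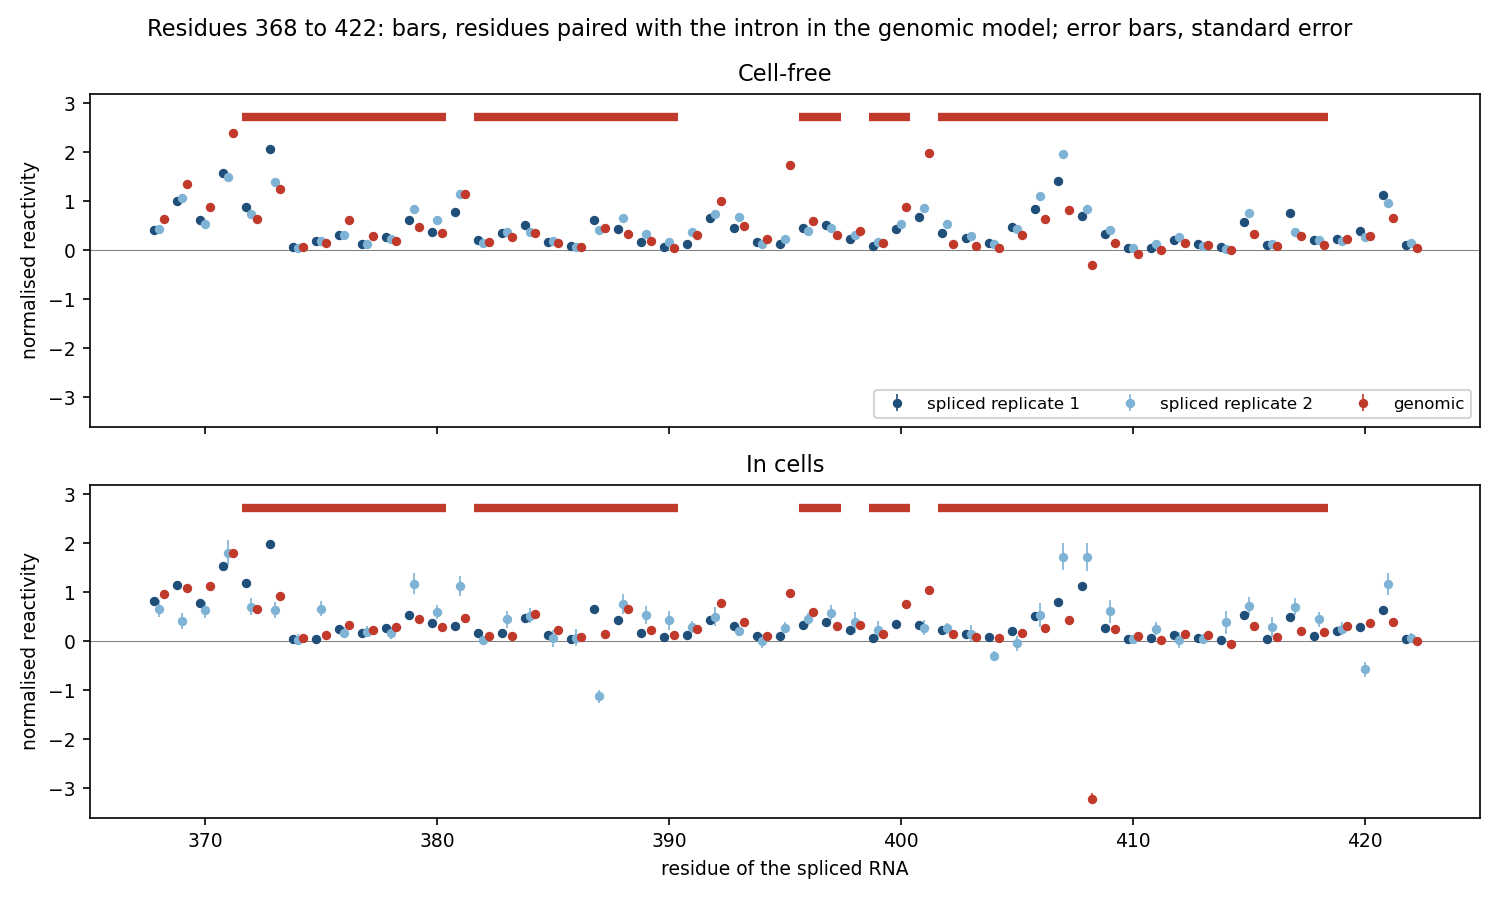
Reactivity (y axis) of residues 368 to 422 (x axis) in the 3 profiles of each environment, with standard errors as bars where they exceed the point. Red bars mark residues paired with the intron in the genomic model, red genomic points at C395 and A401 stand above the spliced points between those bars, A408 is the genomic point at -3.21 in cells, and 1 value of spliced in-cell replicate 2 lies outside the axis.

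Hairpins were kept in both exons. The 3 shown lie at the sites of the deletions made elsewhere in the series, CH1 near the 5′ end and CH4 in exon 2, and at the 3′ end. Residues of kept pairs are in capitals, and 2 further pairs of the CH4 hairpin were not kept.
residues 6 to 36, 5′ hairpin: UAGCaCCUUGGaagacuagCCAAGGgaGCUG
residues 273 to 301, hairpin at the CH4 segment: GCUUguaugAGuaaguacCUacauaGAGC
residues 449 to 500, 3′ hairpin: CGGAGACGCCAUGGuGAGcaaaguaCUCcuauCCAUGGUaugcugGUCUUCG

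The 5′ hairpin had mean probabilities of 0.989 in the spliced and 0.999 in the genomic model for the helix of 11 to 16 with 25 to 30. Reactivity was read only from residue 26 to 493, between the primer sites. The 5′ strand of this hairpin and residues 494 to 500 of the 3′ hairpin were therefore not probed. The outer helix of the CH4 hairpin, 273 to 276 with 298 to 301, had 0.975 and 0.707. The 3′ hairpin had 0.938 and 0.998 for 449 to 455 with 494 to 500, and 0.996 and 1.00 for 456 to 462 with 481 to 487. The outer helix of the 5′ hairpin, 6 to 9 with 33 to 36 (0.939 and 0.983), was also kept in full. So was 112 to 115 with 121 to 124 (0.812 and 0.915), at the end of exon 1 that was low in extracted genomic RNA. Other helices kept in full were 178 to 184 with 194 to 200 (0.971 and 0.922) and 3 of 5 pairs each. These join 324 to 328 with 348 to 352 (0.989 and 0.956), 329 to 333 with 339 to 343 (0.981 and 0.957) and, in exon 1, 73 to 77 with 102 to 106 (0.829 and 0.546). Over residues 449 to 455 the cell-free means were 0.161 in genomic RNA, 0.279 in spliced replicate 1 and 0.245 in replicate 2, so a kept helix was not identical in reactivity. Over residues 324 to 328 the genomic mean was higher, 0.633 against 0.357 and 0.333, and G328 passed the rule.

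In cells fewer exon residues set the forms apart against both spliced replicates. The size rule was passed by 11 of 456 residues (2.41%), 7 (1.54%) higher and 4 (0.877%) lower in genomic RNA. Against replicate 1 alone 27 (5.92%) passed and against replicate 2 alone 116 (25.4%), while the replicates differed from each other at 115 (25.2%). Pearson's r was 0.819 between genomic and replicate 1, 0.0291 between genomic and replicate 2, and 0.00475 between the replicates, whereas Spearman's rho was 0.888, 0.441 and 0.442. The genomic in-cell profile was thus nearer to spliced replicate 1 than the spliced replicates were to each other.

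edgeR called 0 of 456 residues in cells (0%), with 1 higher and 2 lower at an unadjusted p of 0.05. DESeq2 and limma also called 0 at an adjusted p of 0.05, with 3 higher and 2 lower, and 2 higher and 2 lower, at an unadjusted p of 0.05. In simulated in-cell counts edgeR recovered 0 of 32 residues changed 16-fold, so a count of 0 in cells limits little.

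In exon 1 the in-cell result depended on the spliced replicate. Between genomic RNA and spliced replicate 1, r was 0.911 over 96 exon 1 residues in cells and 0.589 over 105 residues in extracted RNA. Between genomic RNA and replicate 2 it was -0.0488 in cells and 0.578 in extracted RNA, and between the spliced replicates it was -0.0515 and 0.951. Of the 96 in-cell residues 10 passed against replicate 1, 20 against replicate 2 and 2 against both, while the replicates differed from each other at 26. The difference between the environments was not tested. A107 had an in-cell reactivity of 1.46 ± 0.054 in genomic RNA, 0.866 ± 0.040 in replicate 1 and 1.13 ± 0.270 in replicate 2. A83 had 1.28 ± 0.051 in genomic RNA, 1.84 ± 0.056 in replicate 1 and 1.41 ± 0.335 in replicate 2. Each kept its cell-free direction at a smaller size and did not pass the rule in cells.

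The largest in-cell rises lay in exon 2 and were adenosines that both models leave unpaired. A479 had 3.34 ± 0.079 in genomic RNA, 2.23 ± 0.077 in spliced replicate 1 and 1.06 ± 0.286 in replicate 2. A215 had 2.16 ± 0.038 in genomic RNA, 1.05 ± 0.036 in replicate 1 and 0.850 ± 0.187 in replicate 2. In extracted RNA neither passed the rule, with A479 at 1.74 in genomic RNA against 1.89 and 2.10, and A215 at 0.988 against 0.714 and 0.882. C246 passed as a fall in cells, at -0.325 ± 0.038 in genomic RNA against 0.295 ± 0.057 in replicate 1 and 39.8 ± 1.09 in replicate 2, where its 5NIA rate was 10.6%.

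Across the 455 residues measured in both environments, the cell-free difference of genomic RNA from the mean of both spliced replicates was set against its in-cell difference from spliced replicate 1. Pearson's r was 0.405 and Spearman's rho 0.393, given as a description over residues that share libraries. Of the 30 cell-free residues past the rule that were also measured in cells, 23 had the same sign against in-cell replicate 1 and 16 against both in-cell replicates. Passing in both environments in the same direction were C395 and A401, which were higher in genomic RNA, and G130 and A408, which were lower. A72 passed in both environments in opposite directions.

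The genomic profile followed the genomic model more closely than the spliced model. The area under the curve, the chance that an unpaired residue is more reactive than a paired one, was 0.790 for the cell-free genomic profile with the genomic model and 0.744 with the joined spliced model. Spliced replicate 1 gave 0.759 with the genomic and 0.771 with the joined spliced model, and replicate 2 gave 0.751 and 0.781. Each cell-free profile thus scored higher with the model of its own form. Cell-free data entered the spliced replicate models, which differ for the same sequence, so that order may have been set in advance. For the in-cell profiles, from which these models were not made, the genomic RNA had 0.783 with the genomic and 0.743 with the spliced model. Spliced in-cell replicate 1 had 0.755 and 0.757, and replicate 2 had 0.671 and 0.656. In cells replicate 2 thus scored higher with the genomic model, and replicate 1 was nearly equal with both.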

How the data were processed

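SHAPE-MaP was run on amplicons of MUNC from the 12 libraries compared here. For every residue the authors deposited, per the file headers, a count of mutations, a count of effective depth and the mutation rate as a fraction, for the 5NIA and the DMSO library side by side. Their normalised reactivity is a score deposited with a standard error, and it equals the rate difference times 1 factor per profile. The merged genomic profile sums both amplicons. Per the file headers, the deposited pairing files give −log10 of each pair's probability. The aligner, mutation counter, folding program and genome build are not given in the sources used here, so no genome coordinates are printed. RefSeq's GRCm38.p6 table gave the gene name and its neighbours only.

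The genomic sequence was matched to the spliced one to number the exons. Residues entered with an effective depth of at least 1000 in every library compared. A difference needed at least 0.5, and more than both standard errors summed and scaled to a 95% normal interval, against both spliced replicates. edgeR 4.0.16 (R 4.3.3) fitted form, treatment and their interaction to the mutation counts of the 6 libraries of an environment, with log effective depth as offset and the median interaction moved into the genomic 5NIA offset. DESeq2 1.42.0 and limma 3.58.1 were alternatives. Only edgeR was run on simulated counts with known changes. Tables were made with Python 3.11.15, pandas 2.3.3 and numpy 2.4.6. Helices are runs of at least 4 stacked pairs. No value column was left unmapped.

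The text names the 5 largest rises and the 5 largest falls past the rule in each environment (in cells 4 falls passed), ranked by the smaller difference. It also names the 5 longest spliced helices with no pair kept, the 5 longest kept in full and the 5 longest exon to intron helices. G63, G261, G262, A260, G328, A258, C122 and the stretches around the helices were chosen after their values were seen. The members and lists were chosen with earlier results of these data known. Alternatives covered depth, scaling, the step size, the error rule, high DMSO rates, amplicon, each replicate left out, the test, and the pairing threshold.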

Additional observations from a re-analysis of the deposited data

Results flagged for a closer look

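A72 of exon 1 moved in opposite directions in the 2 environments, and the difference between the environments was not tested. In extracted RNA every spliced replicate was below the genomic RNA, and the smaller of the differences was 2.00 in normalised reactivity. In cells every spliced replicate was above it, and the smaller of the differences was -0.523. In cells the reactivity was 2.15 ± 0.069 (the authors' standard error) in genomic RNA, 2.68 ± 0.071 in spliced replicate 1 and 3.78 ± 0.551 in replicate 2. Exon 1 of the genomic RNA was read by amplicon 1 alone, whose cell-free library had 34 of 105 exon 1 residues that mutated less with 5NIA than with DMSO, and the part of this in the difference was not tested.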

How the results depend on the processing

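With a step of 1 in place of 0.5, 8 cell-free and 3 in-cell residues passed the size rule, and 8 values of single residues lost their call by it. limma in place of the size rule called 71 residues in extracted RNA and 0 in cells. Leaving out 1 spliced replicate gave 44 to 48 cell-free and 27 to 116 in-cell residues, and the 116 belong to the comparison without spliced replicate 1. The other settings of depth, scaling, error rule, DMSO rate and amplicon gave 29 to 33 cell-free and 9 to 15 in-cell residues, and no named residue reversed under any setting. For edgeR in extracted RNA, leaving out residues with a DMSO rate of at least 2% gave 1 call and DESeq2 gave 10. These alternatives were chosen after seeing the data: libraries scaled to an equal median log mutation rate gave 16 calls, a replicate block pairing the 5NIA and DMSO library of each profile gave 27, and both together gave 26. The cause was not tested. The spliced 5NIA and DMSO libraries of 1 number share only that number in the labels, and their deviations correlated at 0.296 in extracted RNA and 0.303 in cells. In cells every edgeR setting and the replicate block gave 0. At a pairing probability of at least 0.8, 44 of 90 spliced pairs were kept, and the other pairing settings gave 67 to 74.

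The single genomic profile per environment has no replicate of its own, and depth limits spliced in-cell replicate 2 most.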
